A study of Mus musculus with 10 samples.

Results

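A-kinase anchoring proteins (AKAPs), the subunits of protein kinase A (PKA) and the phosphodiesterases that break down cyclic AMP (cAMP) form one signaling unit in heart muscle. Here 10 genes of this unit, chosen by name, were followed in the mouse heart after endurance training: the anchoring proteins Akap1, Akap5, Akap6, Akap12 and Akap13, the PKA subunits Prkaca, Prkar1a and Prkar2a, and the phosphodiesterases Pde3a and Pde4d. All 10 were found among the 56748 genes of the count tables, and all 10 passed the filter on low counts. RNA had been sequenced from the whole hearts of 10 male wild-type C57BL/6 mice, which were 8 weeks old at purchase. The training group (n = 5) ran on a treadmill for 8 weeks, at 15 m/min for 120 min a day on 5 days a week, and the sedentary group (n = 5) did not train. Each library was made from 1 heart with atria and ventricles, so a value is an average over every cell type of the organ.

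PKA is held inactive by a pair of regulatory subunits, which release the catalytic subunits when they bind cAMP. Adenylyl cyclases, driven by β-adrenergic receptors through the stimulatory G protein, make the cAMP, and phosphodiesterases confine it to small regions of the cell. AKAPs bind the regulatory subunits and hold the kinase beside its substrates, such as the calcium channels of the cell membrane, the sarcoplasmic reticulum, the nuclear envelope and the outer membrane of mitochondria. In cardiomyocytes this arrangement sets the speed and force of contraction when the sympathetic drive rises, as it does in exercise.

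Depth, as reverse-strand counts assigned to genes, ran from 29461697 to 35945417 in the trained and from 35196993 to 39431030 in the sedentary libraries. The markers of cardiomyocytes summed to between 38408 and 41360 TPM (transcripts-per-million, a level corrected for transcript length) in the training hearts and to between 38415 and 41462 TPM in the sedentary hearts. In the test on counts, their log2 fold changes (training over sedentary) ran from −0.38 for Actc1 to −0.00083 for Pln. The median of these markers was −0.11, beside 0.00026 over all tested genes. The 6 markers of atrial muscle summed to between 6706 and 10054 TPM in the training hearts and to between 3410 and 9015 TPM in the sedentary hearts, and 2 of the 6, Sln and Dkk3, passed the test as higher. Of 8 cardiomyocyte markers 1 was lower, of 7 fibroblast markers 2 were higher, of 6 endothelial markers 1 was lower, and of 7 mural cell markers 1 was lower and 1 higher. The markers of macrophages, adipocytes, Schwann cells, epicardium, erythroid cells, lymphocytes and skeletal muscle held no called gene, with 1 of 3 tested for each of the last pair. Of 12 clock genes, 3 were lower and 5 higher in the training hearts. No marker was at 0 in every heart. Reads antisense to the 10 genes made up 0.745% in training heart 1, 0.338% in training heart 3 and 0.433% in sedentary heart 3, and between 0.144% and 0.204% in the other hearts.

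Levels were compared between genes on the TPM scale. Prkar1a had the highest mean level, 160.1 ± 8.28 TPM (SD, n = 10 hearts), followed by Prkaca with 93.8 ± 3.79 TPM and Akap1 with 62.3 ± 5.52 TPM. Below them came Prkar2a with 27.8 ± 1.36 TPM, Akap6 with 20.2 ± 2.09 TPM and Akap13 with 14.1 ± 1.59 TPM. Pde3a with 9.66 ± 0.591 TPM, Pde4d with 8.61 ± 0.814 TPM and Akap12 with 7.46 ± 0.733 TPM lay close together, and the range over hearts of each overlapped that of the next. Akap5 was far below all others, with 0.294 ± 0.0783 TPM. From Prkar1a down to Pde3a, and between Akap12 and Akap5, the ranges of neighbours in this order did not overlap. Akap1 was thus the anchoring protein gene with the most transcripts of the 5, at a level 2.26 to 2.44 times that of Prkar2a in the sedentary hearts and 1.96 to 2.26 times in the training hearts.

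**Figure D1:**
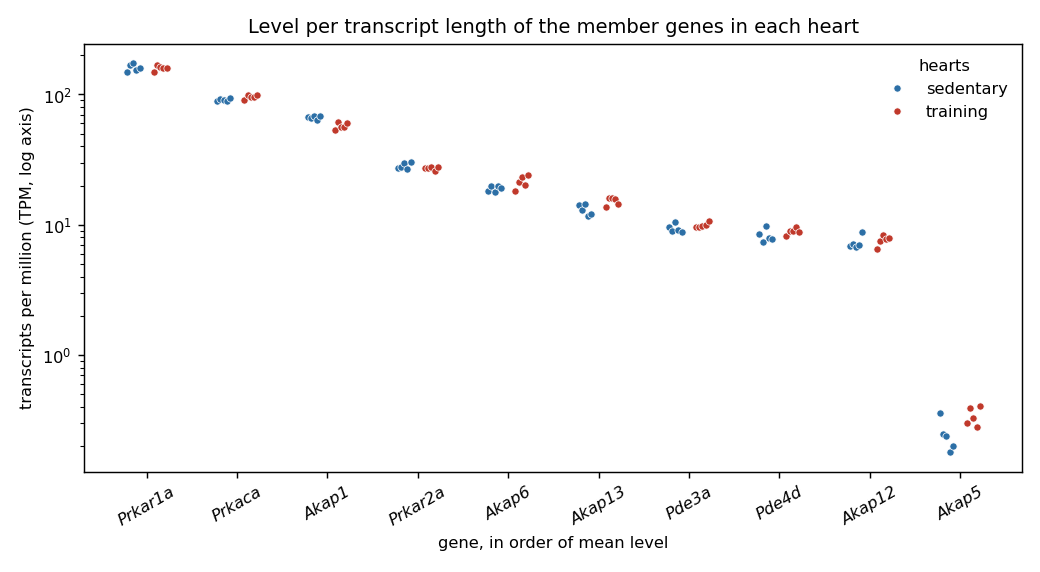
Level of each gene in TPM (log axis) in the 5 sedentary (blue) and 5 training (red) hearts, 1 point per heart, with the genes in order of their mean level. Prkar1a lies highest, between 148 and 173 TPM, and Akap5 lowest, between 0.18 and 0.41 TPM, while Pde3a, Pde4d and Akap12 overlap.

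The comparison asked which of the 10 genes changed with 8 weeks of training. Only Akap1 passed the test, as lower in the training hearts (edgeR's quasi-likelihood test, two-sided, on counts with Benjamini-Hochberg adjustment over all 15454 genes tested, called at an adjusted p below 0.1). None of the 10 was called higher by this test, whereas DESeq2 called 3 of the 10, Akap1 as lower and Akap5 and Akap13 as higher. DESeq2 called 9.53% of all genes it tested, 5.54% as lower and 3.99% as higher. At an unadjusted p below 0.05 in edgeR there were 3 of the 10, beside 20% of all tested genes. For the adjusted edgeR calls the background was 4.26% of all tested genes called lower, 2.75% called higher and 7.01% called in either direction. Of the 10 log2 fold changes (training over sedentary), 6 lay below 0 and 4 above (3 below 0 with library totals alone, without the composition factor), with a median of −0.02, beside a median of 0.00026 over all tested genes. In CPM the groups did not overlap for 2 of the 10, Akap1 and Akap13, and for 5.06% of all tested genes.

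**Figure D2:**
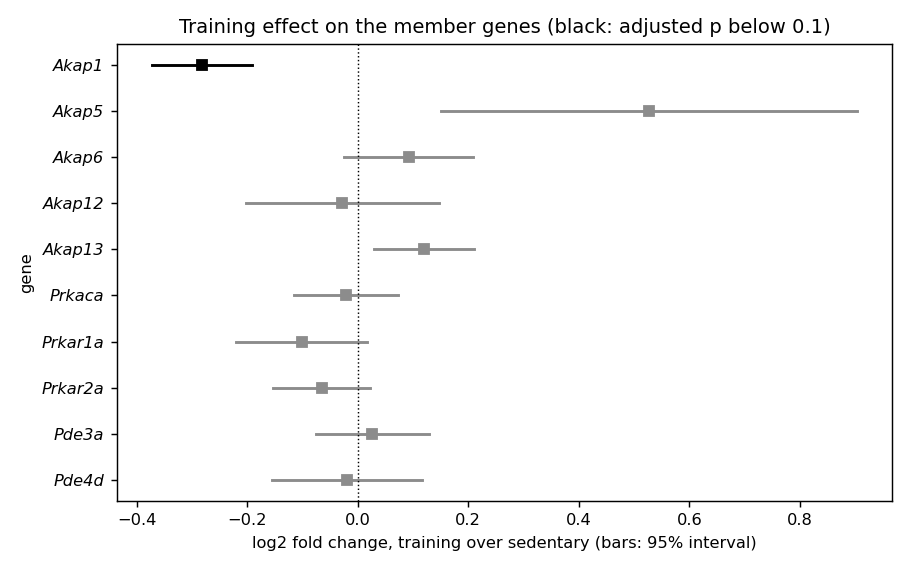
Log2 fold change of each gene, training over sedentary hearts (n = 5 each), with its 95% interval from edgeR's fit. The point of Akap1 at −0.28 is black, since its adjusted p was below 0.1, and the other 9 genes are grey, with intervals that include 0 except for Akap5 and Akap13.

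Akap1 (ENSMUSG00000018428, chromosome 11 of GRCm39, 88721610 to 88755453, minus strand) encodes an AKAP of the outer mitochondrial membrane. It was at 178, 188, 166, 171 and 179 CPM (counts-per-million with the composition factors of edgeR) in training hearts 1 to 5 and at 203, 219.9, 217, 212 and 221 CPM in sedentary hearts 1 to 5. Every training heart was below every sedentary heart, and the nearest hearts of the groups were training heart 2 and sedentary heart 1. The change was −17.7%, with a 95% interval from −22.7% to −12.4% (log2 fold change −0.28, standard error 0.042, edgeR adjusted p = 0.00871), and its p ranked 19 among all genes tested. Fewer cells with Akap1 and less Akap1 RNA per cell cannot be told apart in whole-heart RNA. These values rest on 5401 to 8185 counts per library, and the coefficient of variation between hearts was 4.75% in the training group and 3.37% in the sedentary group.

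The atrial marker score, the mean centred log2 CPM of the 6 atrial genes, moved with the groups as well. It lay between 0.0597 and 0.708 in the training hearts and between −1.04 and 0.362 in the sedentary hearts. Once the score was added to the fit, the log2 fold change of Akap1 was −0.21 (standard error 0.048) and its call was lost (edgeR adjusted p = 0.102), while the calls over all genes went from 1084 to 94. In each group the heart with the highest score had the lowest Akap1 level, training heart 3 with a score of 0.708 and 166 CPM and sedentary heart 1 with a score of 0.362 and 203 CPM. Over the 5 training hearts Akap1 was lower the higher the score. Hearts 2, 5, 1, 4 and 3 had scores of 0.0597, 0.191, 0.376, 0.430 and 0.708 and 188, 179, 178, 171 and 166 CPM. Sedentary hearts 1, 4 and 3 went the same way, with scores of 0.362, 0.00144 and −0.199 and 203, 212 and 217 CPM. Sedentary hearts 5 and 2, with scores of −0.893 and −1.04, had the highest levels of that group but in the other order, 221 and 219.9 CPM. A relation of score and level within the groups was not tested. Without the 3 hearts of highest antisense share, a fit chosen after seeing the data, the log2 fold change was −0.25 (standard error 0.052, edgeR adjusted p = 0.11), and 76 genes were called in all. When single hearts were left out, the edgeR adjusted p of Akap1 stayed between 0.00499 and 0.0277.

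**Figure D3:**
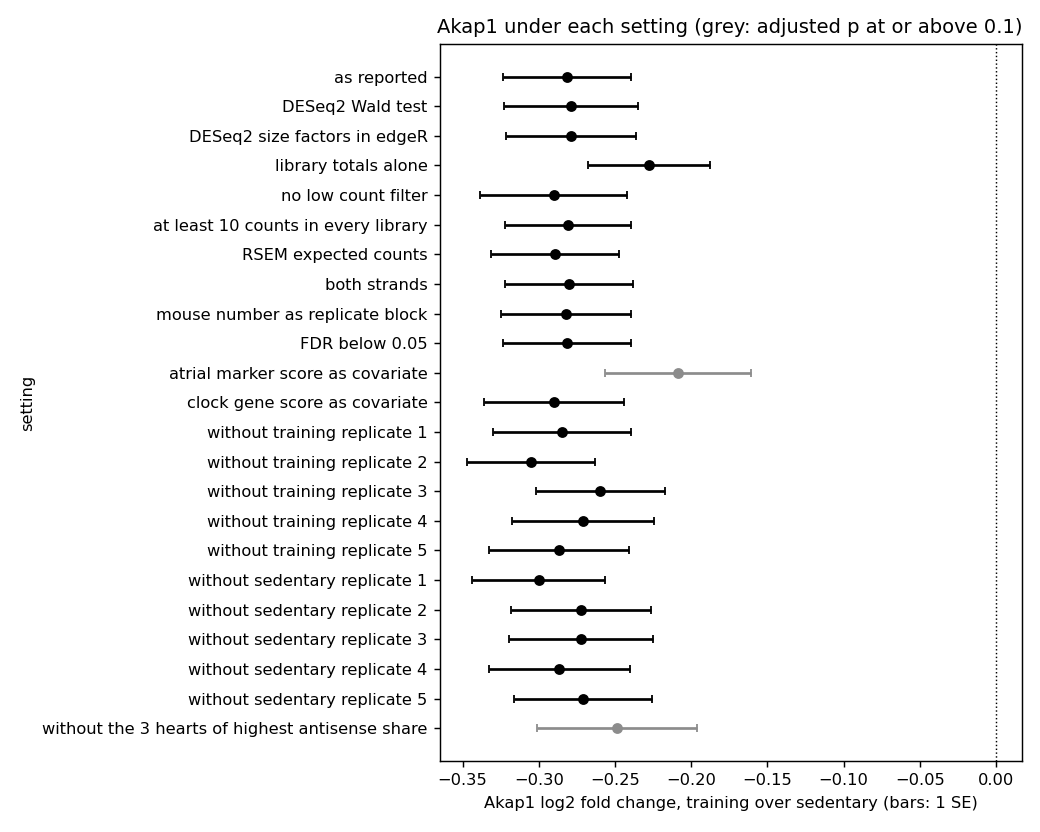
Log2 fold change of Akap1, training over sedentary hearts, as reported (top) and under each other setting, with bars of 1 standard error. All points lie between −0.31 and −0.21, and those of the atrial score covariate and of the fit without the 3 hearts of highest antisense share are grey, since their adjusted p was 0.102 and 0.11.

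Akap13 (ENSMUSG00000066406, chromosome 7, 75105282 to 75404358) encodes an AKAP that is also an exchange factor for the GTPase RhoA. Its values were 132, 139, 150.2, 138 and 131 CPM in training hearts 1 to 5 and 129.5, 123, 129.7, 126 and 127 CPM in sedentary hearts 1 to 5. In CPM all training hearts lay above all sedentary hearts, and the nearest were training heart 5 and sedentary heart 3. In TPM the groups overlapped, with 13.6 to 16.1 TPM in the training and 11.6 to 14.5 TPM in the sedentary hearts. The difference was 8.65%, with a 95% interval from 2.04% to 15.7%, and it missed the threshold (log2 fold change 0.12, standard error 0.042, edgeR adjusted p = 0.137). DESeq2 gave an adjusted p of 0.0677 for the same gene, and edgeR with library totals alone one of 0.0764. With the atrial score in the fit the log2 fold change was 0.08 (standard error 0.055, edgeR adjusted p = 0.645).

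Akap5 (ENSMUSG00000021057, chromosome 12, 76371613 to 76382157) encodes an AKAP that holds PKA and the phosphatase calcineurin at membrane receptors and channels. In training hearts 1 to 5 it was at 2.04, 1.83, 1.53, 1.31 and 1.76 CPM, and in sedentary hearts 1 to 5 at 1.34, 1.43, 1.22, 0.797 and 1.07 CPM. Only training heart 4 lay inside the sedentary range. These values rest on 28 to 72 counts per library, and the antisense share of the gene reached 15.2% in the heart where it was highest. Its mean was 44.2% higher in the training hearts, with a 95% interval from 11.1% to 87.1%, and missed the threshold (log2 fold change 0.53, standard error 0.175, edgeR adjusted p = 0.117). It passed with DESeq2 (adjusted p = 0.0731) and in 4 other fits, those with library totals alone, with the mouse number as a block, with the clock gene score and without sedentary heart 1, at adjusted p-values between 0.0576 and 0.0933.

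Akap6 (ENSMUSG00000061603, chromosome 12, 52746017 to 53202382) encodes the muscle AKAP of the nuclear envelope. Its values of 246, 249, 262, 248 and 264 CPM in training hearts 1 to 5 lay within a narrower band than the 215, 246, 221, 264 and 245 CPM of sedentary hearts 1 to 5. The groups overlapped, and the difference was 6.59% with a 95% interval from −1.64% to 15.5% (edgeR adjusted p = 0.371, and 0.0961 with library totals alone). Akap12 (ENSMUSG00000038587, chromosome 10, 4216118 to 4309470), the gene of gravin, a scaffold of the β2-adrenergic receptor, was at 38.9, 41.1, 45.2, 44.0 and 42.9 CPM in training hearts 1 to 5. In sedentary hearts 1 to 5 it was at 38.3, 43.0, 38.6, 42.9 and 53.5 CPM, with sedentary heart 5 the highest of all 10 hearts. Its change of −1.89% had a 95% interval from −13.0% to 10.7% (edgeR adjusted p = 0.889).

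**Figure D4:**
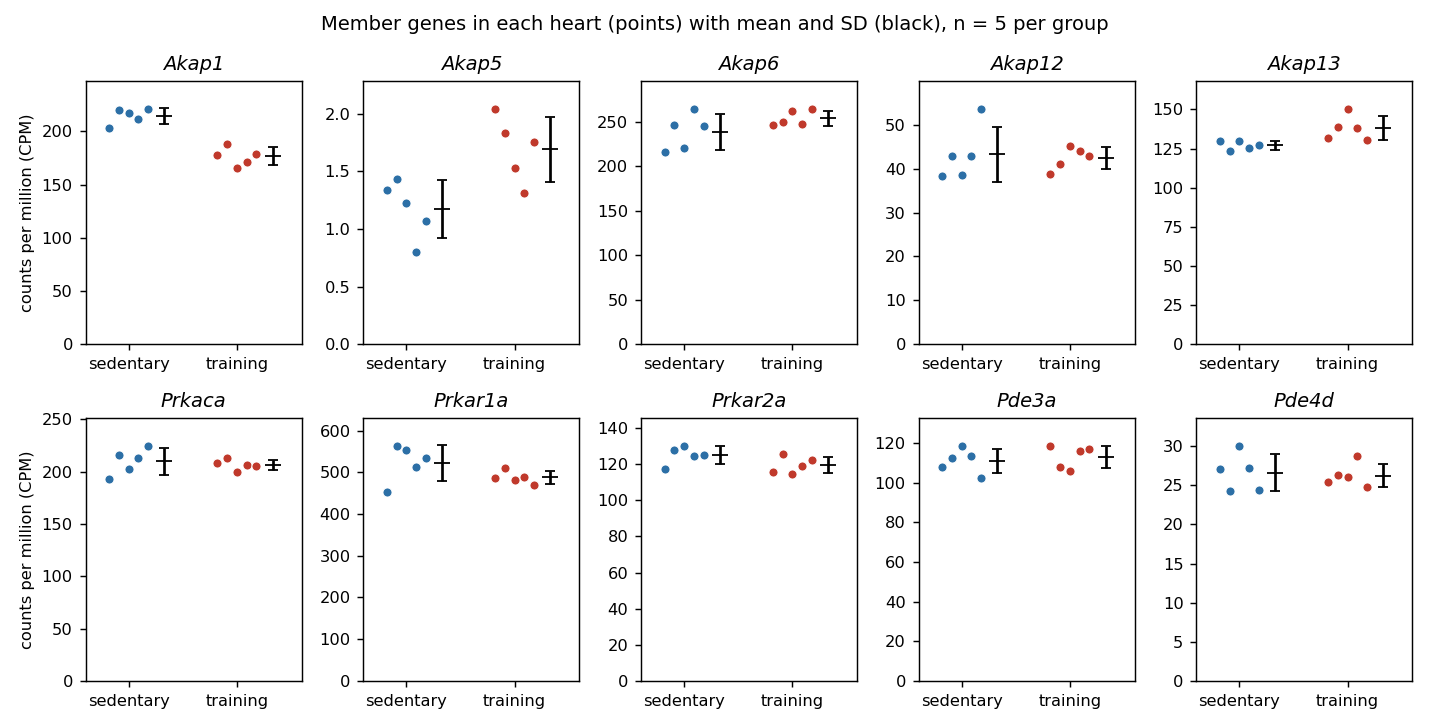
CPM of the 10 genes in each of 5 sedentary (blue) and 5 training (red) hearts, with the mean and SD of each group in black and each axis starting at 0. Akap1 and Akap13 are the genes whose groups do not overlap, Akap1 with the training hearts below and Akap13 with the training hearts above.

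None of the PKA subunit genes passed the test. Prkaca (ENSMUSG00000005469, chromosome 8, 84699575 to 84723091) encodes the main catalytic subunit of the heart. It was at 209, 213, 200.2, 207 and 205 CPM in training hearts 1 to 5 and at 193, 216, 202, 213 and 225 CPM in sedentary hearts 1 to 5, and the training hearts lay within the sedentary range. The change was −1.46%, with a 95% interval from −7.71% to 5.20% (edgeR adjusted p = 0.836). Smim46, which the count tables do not list, shares 62 exonic bases with Prkaca on the same strand.

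Prkar1a (ENSMUSG00000020612, chromosome 11, 109513434 to 109560633) encodes the type I regulatory subunit, which is largely free in the cytosol. Its values were 487, 510.1, 482, 489 and 469 CPM in training hearts 1 to 5 and 454, 563, 553, 512 and 533 CPM in sedentary hearts 1 to 5. Sedentary heart 1 was the lowest of all hearts and the other 4 sedentary hearts were above every training heart. With all hearts the change was −6.80%, with a 95% interval from −14.1% to 1.15% (log2 fold change −0.10, standard error 0.055, edgeR adjusted p = 0.326). Without sedentary heart 1 the log2 fold change was −0.15 and passed (standard error 0.043, edgeR adjusted p = 0.0673), as it did in no other of the 22 alternatives. With the atrial score in the fit it was 0.00543 (standard error 0.060, edgeR adjusted p = 0.985).

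Prkar2a (ENSMUSG00000032601, chromosome 9, 108566513 to 108627641) encodes the type II regulatory subunit, the one that most AKAPs bind. It was at 116, 126, 115, 119 and 122 CPM in training hearts 1 to 5 and at 117, 128, 130.2, 125 and 125 CPM in sedentary hearts 1 to 5. The groups overlapped, and the change was −4.40% with a 95% interval from −10.04% to 1.58% (edgeR adjusted p = 0.408).

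The make-up of the kinase was described on the TPM scale. Prkar1a made up 83.9% ± 0.574 (SD, n = 5) of the TPM of the 4 regulatory subunit genes of the training hearts, against 83.9% ± 0.917 in sedentary hearts. Prkaca made up 83.6% ± 0.529 of the TPM of both catalytic genes, Prkaca and Prkacb, in the training group, against 83.7% ± 0.713 in the sedentary group. The ratio of catalytic to regulatory TPM lay between 0.599 and 0.620 in the training hearts and between 0.532 and 0.601 in the sedentary hearts. These shares and ratios are descriptions of the same libraries and were not tested.

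CREB, a transcription factor that PKA phosphorylates, binds the cAMP response element, whose 8 letters TGACGTCA read alike on both strands. RefSeq promoter windows, from 250 bases before to 50 after a start on the build GRCm38.p6, were at hand for 8 of the 10 genes, 16 windows in all, with none for Akap12 and Pde3a. The full element stood in 1.79% of all 32851 windows and, among these genes, in the windows of Prkar1a alone, 2 of its 6, which overlap and share the same site. The half-site TGACG, searched on both strands and contained in the full element, stood in 20.8% of all windows. Among these genes it stood in 5 of the 16 windows (31.25%), which belong to Prkar1a, Prkaca and Prkar2a. The stretches around these sites are shown because all of the genes that hold one encode PKA subunits, whereas the 3 windows of Akap1, the gene that was called, held none. This contrast was seen after the search and was not tested. The genes differ in their windows, with 6 for Prkar1a, 2 for Prkaca and 1 for Prkar2a, and most windows of any gene lack the half-site. The capitals mark the element or the half-site, which stands here as its reverse complement CGTCA. Each is the match of that form that begins nearest before the start, as TGACG itself was not sought for the Prkaca and Prkar2a stretches. The site of Prkar2a begins 4 bases before the start and runs across it. A match is a run of letters only, and no match says nothing of the factor.
Prkar1a, chr11:109650889-109650918, plus strand: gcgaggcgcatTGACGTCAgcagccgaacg
Prkaca, chr8:83972961-83972990, plus strand: ggctgcgggggCGTCAcggacagaggactt
Prkar2a, chr9:108692128-108692157, plus strand: gcggccgcgtgCGTCAcaacccgggcgcct
Of 11 genes with a window among the CREB factors and targets described below, 1 held the full element and 8 held the half-site. These are genes with a match in any of their windows, so they cannot be set against the shares of all windows.

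Neither phosphodiesterase gene passed the test. Pde3a (ENSMUSG00000041741, chromosome 6, 141194888 to 141453174) encodes the cGMP-inhibited enzyme that degrades cAMP near the sarcoplasmic reticulum. Its values of 118, 108, 106, 116 and 117 CPM in training hearts 1 to 5 and 108, 112, 118, 113 and 102 CPM in sedentary hearts 1 to 5 overlapped almost throughout. An annotated antisense transcript, Gm28523, shares 833 exonic bases with Pde3a on the opposite strand, and the antisense share of the gene lay between 0.517% and 1.44%. The difference was 1.86%, with a 95% interval from −5.10% to 9.34% (edgeR adjusted p = 0.81). Pde4d (ENSMUSG00000021699, chromosome 13, 108586482 to 110092497) encodes a cAMP-specific enzyme that associates with the ryanodine receptor and with AKAPs. It was at 25.4, 26.3, 26.0, 28.8 and 24.7 CPM in training hearts 1 to 5 and at 27.0, 24.3, 30.0, 27.2 and 24.4 CPM in sedentary hearts 1 to 5. The training hearts lay within the sedentary range for Pde4d, and the change was −1.33% with a 95% interval from −10.2% to 8.40% (edgeR adjusted p = 0.901).

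All 10 genes have more than 1 annotated transcript, from 2 for Akap6, Prkaca and Pde3a to 20 for Pde4d. A change in the mix of transcripts of unlike length would move the transcript length that RSEM weights by abundance. Transcripts of like length could trade places without moving it, so this length cannot show such a change. None of the 10 passed a test of this length (limma on log2 length, adjusted p below 0.1), none had an unadjusted p below 0.05, and over 12834 genes these shares were 0.14% and 10.6%. The lowest adjusted p was that of Pde4d, with 3017 ± 53.4 bases in the training and 3150 ± 148 bases in the sedentary hearts (SD, n = 5 each, limma adjusted p = 0.54). Akap12 was the gene whose groups did not overlap in length, as they did not for 2.5% of the genes tested, with 6028 ± 10.3 bases against 6005 ± 9.62 bases (limma adjusted p = 0.7). Akap1 had 3316 ± 33.2 bases in the training and 3288 ± 56.4 bases in the sedentary hearts (limma adjusted p = 0.799).

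Across hearts, with the mean of each group taken out first, Akap1 and Prkar2a had the highest correlation of log2 CPM among the 45 pairs of the 10 genes (Pearson's r = 0.82 over 10 hearts). Prkar1a and Prkar2a followed with r = 0.75 and Akap1 and Prkaca with r = 0.70, while Akap1 and Akap13 gave r = −0.55 and Akap12 and Pde3a r = −0.61. Among 13093 genes with at least 1 CPM on average, the 5 most like Akap1 by the same measure were Tbrg4 (r = 0.97), Kif16b (r = 0.94), Abcf1 (r = 0.93), Gmpr (r = 0.92) and Fam53b (r = 0.90). Of these, Tbrg4 was called, as lower (log2 fold change −0.20, standard error 0.045, edgeR adjusted p = 0.0316), and the other 4 had log2 fold changes between −0.09 and 0.07. These correlations are descriptions of 10 hearts and share the depth and scaling of each library.

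Beyond the 10 genes, 9 lists held 123 other genes of the cAMP pathway, of which 118 were tested. Of these 118, 8 were called lower and 7 higher, 12.7% in all beside 7.01% of all tested genes, and their median log2 fold change was −0.01. The lists were written with earlier results of these data known, so the 12.7% cannot show more change in this pathway than elsewhere. All 15 lost their calls once the atrial marker score was in the fit, and also without the 3 hearts of highest antisense share, where each kept its direction. With the atrial score the log2 fold change went from 0.83 to 0.30 for Sphkap, from 0.50 to 0.15 for Adcy1, from 0.40 to 0.20 for Pde3b, from 0.28 to 0.13 for Gnai1, from −0.29 to −0.15 for Hcn2, from −0.14 to −0.07 for Opa1 and from −0.21 to −0.14 for Cacna1c. Those of the other 8 moved less in proportion, the most for Hspb6, from −0.42 to −0.31. Rrad went from 0.48 to 0.37 and Dnm1l from −0.13 to −0.10. Smaller moves were those from 0.24 to 0.28 for Pde1c, from −0.21 to −0.22 for Popdc3 and from −0.21 to −0.19 for Fxyd1. The 2 genes with the highest mean TPM of each list were Pde4dip and Cmya5, Pkig and Pkia, Pde4a and Pde7a, Gnas and Gnai2, Popdc2 and Popdc1, Tnni3 and Pln, Ppp1ca and Ppp1cb, Rhoa and Mef2d, and Ppargc1a and Dusp1. None of these 18 was called, with log2 fold changes between −0.29 for Ppargc1a and 0.18 for Pde7a and edgeR adjusted p-values between 0.125 for Pde4a and 0.996 for Pln.

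Of 20 tested genes of other anchoring proteins, 1 was higher and 1 lower. Sphkap, which encodes an AKAP that prefers the type I regulatory subunit, rose from 2.55 ± 0.786 to 4.57 ± 0.901 CPM (SD, n = 5 each), a difference of 78.2% with a 95% interval from 32.8% to 139% and no overlap between the groups (edgeR adjusted p = 0.0384). Opa1, whose product fuses the inner mitochondrial membrane and anchors PKA at lipid droplets, fell from 269.96 ± 12.5 to 245 ± 8.85 CPM without overlap (log2 fold change −0.14, standard error 0.042, edgeR adjusted p = 0.0854). The call of Opa1 was lost in 14 of 22 alternatives, among them library totals alone (−0.09, edgeR adjusted p = 0.225), the mouse number as a block (edgeR adjusted p = 0.129) and the omission of any single heart except training heart 5 or sedentary heart 1. Of the Pakap locus, which includes Akap2, the tested identifier was at 0.348 and 0.372 CPM in the training and sedentary groups, and 3 identifiers share this symbol on overlapping ground. RSEM gave the Akap2 identifier 32.2 ± 6.04 TPM in the training and 31.9 ± 1.17 TPM in the sedentary hearts (edgeR on expected counts, adjusted p = 0.802).

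None of 7 genes of other PKA subunits and inhibitors was called by edgeR or by DESeq2, and 1 had an unadjusted p below 0.05 in edgeR, beside 20% of all tested genes. That gene was Prkar2b, the second type II regulatory subunit, with 6.24 ± 2.96 CPM after training and 3.16 ± 1.25 CPM without it (log2 fold change 0.97, standard error 0.32, edgeR adjusted p = 0.116).

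Of 15 tested genes of other phosphodiesterases, 2 were higher and none lower. Pde1c, the gene of a calcium- and calmodulin-dependent enzyme, rose from 65.6 ± 4.94 to 77.4 ± 4.56 CPM (log2 fold change 0.24, standard error 0.057, edgeR adjusted p = 0.0379). Pde3b, the paralog of Pde3a, rose from 10.5 ± 1.23 to 13.9 ± 2.20 CPM (log2 fold change 0.40, standard error 0.107, edgeR adjusted p = 0.0551), a call that was lost without training heart 3 or 4 or sedentary heart 2, 3 or 5. Pde2a, a cGMP-stimulated enzyme, was not tested, as its median unique count was 8 where RSEM expected 2413.5, and another gene identifier covers nearly all of it on the same strand. By RSEM it was at 17.7 ± 0.954 TPM in the training and 20.4 ± 0.804 TPM in the sedentary hearts without overlap (edgeR on expected counts, log2 fold change −0.29, standard error 0.059, adjusted p = 0.0281), which depends on how RSEM shared the reads of the overlapping identifiers.

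Among 14 tested genes of adenylyl cyclases and G proteins, 3 were higher and none lower, with a median log2 fold change of 0.05 over the list. Adcy1, a calmodulin-stimulated cyclase, rose from 18.2 ± 3.52 to 25.7 ± 3.24 CPM without overlap (log2 fold change 0.50, standard error 0.12, edgeR adjusted p = 0.0418), and lost its call without training heart 3. Adcy7, another cyclase, rose from 15.2 ± 1.09 to 18.7 ± 2.27 CPM (log2 fold change 0.30, edgeR adjusted p = 0.0615), and lost it without training heart 3 or sedentary heart 2, 4 or 5. Gnai1, the gene of an inhibitory α subunit, rose from 7.20 ± 0.752 to 8.77 ± 0.535 CPM (log2 fold change 0.28, edgeR adjusted p = 0.0682). Its call was lost in 7 of the 10 fits that leave out a heart, and kept when training heart 1 or 2 or sedentary heart 1 was left out.

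**Figure D5:**
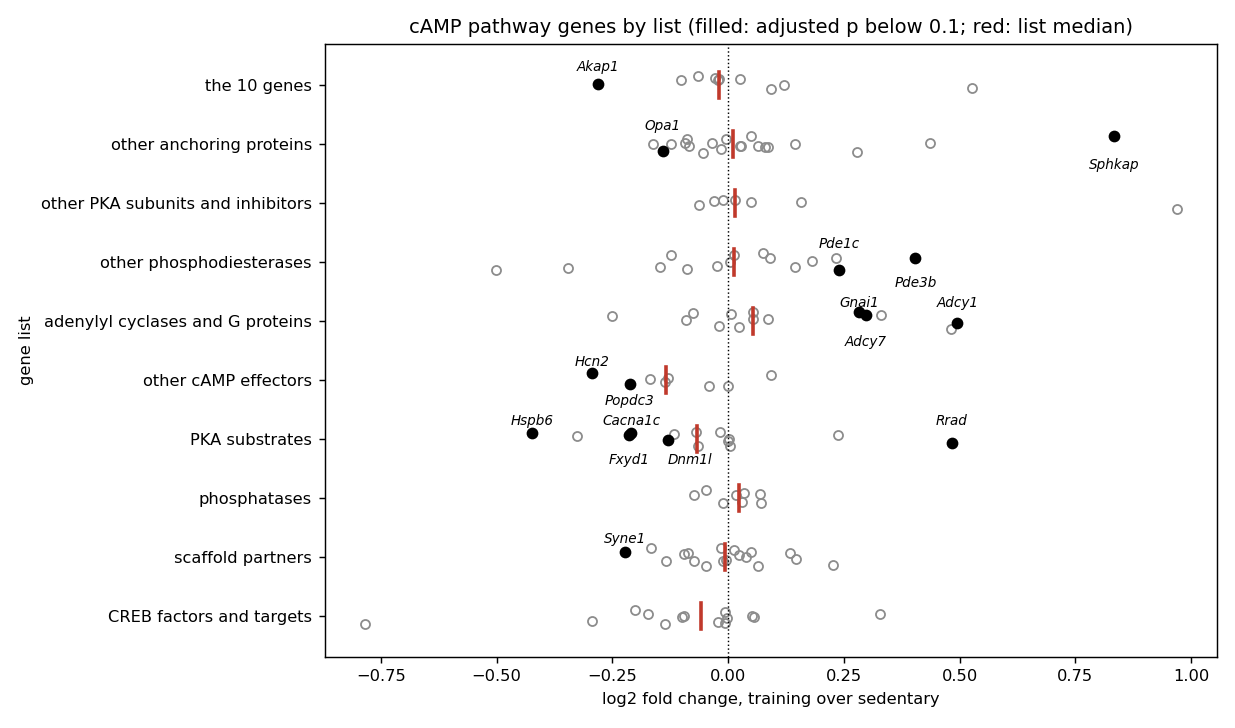
Log2 fold change, training over sedentary hearts, of every tested gene of the cAMP pathway by list, 1 point per gene. Filled and named points had an adjusted p below 0.1, and the red bar is the median of the list. The named cyclases, G protein and phosphodiesterases lie above 0 and the named cAMP effectors below 0.

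Of 8 other cAMP effectors, 2 were lower and none higher, and the median log2 fold change was −0.13. Hcn2, a cAMP-gated channel of the pacemaker current, fell from 35.1 ± 2.98 to 28.6 ± 1.62 CPM without overlap (log2 fold change −0.29, standard error 0.061, edgeR adjusted p = 0.0232). Popdc3, of the cAMP-binding Popeye family, fell from 24.0 ± 1.21 to 20.7 ± 1.27 CPM (log2 fold change −0.21, edgeR adjusted p = 0.0498), a call lost with library totals alone and without training heart 3 or sedentary heart 3.

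Of 14 genes of PKA substrates, 4 were lower and 1 higher, around a median log2 fold change of −0.07. Hspb6, a small heat shock protein, changed by −25.4%, with a 95% interval of the change from −32.1% to −18.0% (edgeR adjusted p = 0.00871). Cacna1c, the pore of the L-type calcium channel, fell from 361 ± 25.4 to 312 ± 14.9 CPM (log2 fold change −0.21, edgeR adjusted p = 0.046), and was not called without training heart 3 or sedentary heart 3. Rrad, a small GTPase that restrains this channel, rose from 115 ± 25.4 to 160.2 ± 35.1 CPM (log2 fold change 0.48, standard error 0.152, edgeR adjusted p = 0.0974). The call of Rrad was lost in 13 of 22 alternatives, among them DESeq2 (adjusted p = 0.118), expected counts (edgeR adjusted p = 0.114) and the omission of any single heart except training heart 5 or sedentary heart 1. Fxyd1, the regulator of the sodium pump known as phospholemman, fell from 252 ± 13.0 to 217 ± 15.1 CPM without overlap (log2 fold change −0.21, edgeR adjusted p = 0.0444). Dnm1l, the fission protein of mitochondria that PKA at Akap1 phosphorylates, fell from 172 ± 2.22 to 157 ± 7.92 CPM without overlap (log2 fold change −0.13, standard error 0.04, edgeR adjusted p = 0.0932). The call of Dnm1l was lost in 18 of 22 alternatives, among them library totals alone (−0.08), expected counts, both strands, the mouse number as a block (edgeR adjusted p = 0.114) and the omission of any single heart except training heart 2.

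Among 18 scaffold partners, 1 was lower. Syne1, which encodes nesprin-1, the partner that holds Akap6 at the nuclear envelope, fell from 131 ± 8.49 to 112 ± 7.90 CPM (log2 fold change −0.22, standard error 0.056, edgeR adjusted p = 0.046), a call lost with library totals alone and without training heart 4 or sedentary heart 3. None of 8 phosphatase genes was called by edgeR or DESeq2, and none had an unadjusted p below 0.05.

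None of 14 CREB factors and targets was called by edgeR or DESeq2, 2 had an unadjusted p below 0.05 in edgeR beside 20% of all tested genes, and 11 of the 14 log2 fold changes lay below 0, with a median of −0.06. Nr4a3, which passed at the unadjusted level, averaged 51.1 ± 19.8 CPM after training and 88.0 ± 31.0 CPM without it (log2 fold change −0.78, standard error 0.291, edgeR adjusted p = 0.155). The other was Nr4a2, with a log2 fold change of 0.33 (edgeR adjusted p = 0.216).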

How the data were processed

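Directional poly-A libraries of 10 whole hearts were sequenced as single reads of 100 bases. Per heart, the authors deposited gene counts (unique alignments, each strand and both) from STAR 2.7.10a on GRCm39 and expected counts, TPM and weighted transcript lengths per gene from RSEM 1.3.3, none filtered. The strand setting of RSEM is not given in the sources used here.

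Reverse-strand counts, between 94.9% and 95.6% of those on either strand, were tested with edgeR 4.0.16 in R 4.3.3 (filterByExpr, TMM, quasi-likelihood test), with Benjamini-Hochberg adjustment over all genes and a threshold of 0.1. CPM values carry the TMM factors. Log2 RSEM lengths of genes with several transcripts and at least 10 expected counts on average were tested with limma 3.58.1, with a mean-variance trend. DESeq2 1.42.0, expected counts rounded to whole numbers, other scalings and filters, marker scores as covariates and each heart left out were alternatives. The fits were tested on simulated data. Symbols and positions came from GENCODE M39, which matched 56017 of 56748 identifiers, and promoter windows from RefSeq. Table lines that name no gene stayed out: multimapping reads were 17.9% to 19.2% of all reads, and 4.15% to 4.89% matched no gene on the counted strand. The latter share includes reads on the opposite strand of a gene.

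The 10 genes, the pathway lists, the marker lists and the alternatives were chosen with earlier results of these data known. All 10 genes were named, and of the other lists every called gene and the 2 with the highest mean TPM; Prkar2b, Nr4a2, Nr4a3, Pde2a and Pakap were added after their values were seen. The labels number separate mice. Hearts of the same number were not treated as pairs, since their deviations from the group means correlated between −0.097 and 0.159.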

Additional observations from a re-analysis of the deposited data

How the results depend on the processing

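The count of 1 called gene among the 10 was 3 with DESeq2, 4 with library totals alone, 2 with the mouse number as a replicate block, 2 with the clock score and 0 with the atrial score as covariates, 0 without the 3 hearts of highest antisense share (chosen after seeing the data), and between 1 and 3 with each heart left out. Sedentary heart 1 decided the highest of these, 3. The share of all tested genes called, 7.01% as reported, was 9.53% with DESeq2 and 8.85% with library totals alone. With the block it was 7.36%, with the clock score 9.69%, with the atrial score 0.608% and without those 3 hearts 0.487%. Leaving out each heart gave 3.29% to 9.58%, the highest without sedentary heart 1. The count of called genes among the 118 other pathway genes, 15, was 9 at a threshold of 0.05, 0 with the atrial score, 0 without those 3 hearts, and between 7 and 20 with each heart left out, with 7 without training heart 3 or sedentary heart 3 and 9 without training heart 4, sedentary heart 2 or sedentary heart 5. Over all genes these 5 fits called between 512 and 761 in place of 1084. Library totals alone moved the median log2 fold change of all genes to 0.053 and the calls from 425 higher and 659 lower to 1029 higher and 339 lower. Directions turned only for genes that were not called. Akap12 turned with library totals alone (0.0293), with the atrial score (0.0982) and with hearts left out (range −0.069 to 0.0607). Prkaca turned with library totals alone (0.0336), with the atrial score (0.0637) and with hearts left out (range −0.0505 to 0.00424), Prkar1a with the atrial score (0.00543), and Pde3a with hearts left out (range −0.000869 to 0.0561). Pde4d turned with library totals alone (0.033), the clock score (0.0188), without the 3 hearts of highest antisense share (0.0519) and with hearts left out (range −0.0539 to 0.033). The causes of these changes were not tested. With the mouse number as a replicate block, 1137 genes were called in place of 1084 and among the 10 genes Akap5 was added (0.53, edgeR adjusted p = 0.0742), while Opa1 and Dnm1l lost their calls. Of hearts set beside those of the same number, 1 of 5 training hearts and 2 of 5 sedentary hearts correlated best with their own number. None of the 10 genes passed the length test under any of its 13 alternatives. Akap5, with at most 72 counts per library, is the gene whose precision depth limits most.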
